A study of Mus musculus with 20 samples.

Results

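Compounds 942, 178 and 181 were each given to C2C12 cells at 25 and at 6.25 µM, and the 25 µM array of each compound was set against the 6.25 µM array of the same compound. This gave 3 pairs, or 6 of the 20 arrays of the series, and the pairs were chosen by compound and dose alone. C2C12 is a line of mouse myoblasts, and the labels name it for every array. Methanol (3 arrays) is used here as the compounds' vehicle, since the protocol names it beside them. The other arrays were 3 of the compounds at 12.5 µM, 6 of recombinant BMP4 at 10, 100 or 300 ng/ml and 2 of untreated cells. The series' title presents its compounds, called ventromorphins, as activators of BMP signalling, and the structures behind the code numbers are not described here.

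Each compound dose was measured on 1 array, so no pair can be repeated within a compound, and the 3 compounds are the only replicates of the dose. Within a pair, the labelling method and the run of title numbers were the same. All 942 arrays were labelled by a method called Affyexpress and lay in the first run (titles 10 to 17). The 178 and 181 arrays were labelled by the standard method and lay in the second run (titles 18 to 29), so 942 differs from the other compounds in labelling and run as well as in compound. All 3 methanol arrays were labelled by the standard method, 1 in the first run and 2 in the second, so a comparison of 942 with methanol also carries the difference in labelling. Title numbers rose with dose within every compound, and dose and order cannot be told apart. How long the cells were treated is unstated in the sources used here, and nothing in the labels says that wells of a group were separate cultures.

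Myoblasts that leave the cell cycle switch on myogenin, which with MEF2 factors turns on the genes of the contractile apparatus and of cell fusion. BMPs act through receptor kinases and SMAD proteins, turn on Id genes and inhibitory SMADs, hold back myogenesis in C2C12 cells and turn them toward osteoblast traits. NRF2 is a transcription factor that electrophiles and oxidants release from degradation, and it raises detoxifying and glutathione-handling enzymes.

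Values are log2 signals, and a step is the log2 signal at 25 µM minus that at 6.25 µM of the same compound, so that a step of 1 is a doubling. Tests covered 22180 genes. Array medians lay between 4.93 and 5.05, and the arrays of a pair correlated at 0.992 for 942, 0.991 for 178 and 0.988 for 181 across genes. Defining myoblast markers had a mean signal of 10.44 to 10.59 at 25 µM and of 10.57 to 10.62 at 6.25 µM over 10 genes. The 8 endothelial markers averaged 4.17 to 4.38 at 25 µM and 4.13 to 4.23 at 6.25 µM, and the 8 macrophage markers 4.51 to 4.62 at 25 µM and 4.46 to 4.60 at 6.25 µM. These levels were below the array medians. At 25 µM, 8 of 8 endothelial markers were higher in 942, 5 in 178 and 2 in 181, beside 49.3%, 51.4% and 49.5% of all genes. The part of these markers in the results below was not tested. The 7 epithelial markers averaged 5.36 to 5.46 at 25 µM and 5.37 to 5.47 at 6.25 µM, above the array medians.

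Few genes differed by much between the doses. A step of at least 0.5 in size was found in 3.44% of genes for 942, in 2.93% for 178 and in 5.41% for 181. The same difference separated methanol replicates 2 and 3, which share a run, in 3.03% of genes, while methanol arrays of different runs differed that much in 5.71% and 6.79%. Among the 12615 genes with a mean signal of at least 5, the shares were 3.05% for 942, 1.10% for 178 and 3.78% for 181, against 0.896% between methanol replicates 2 and 3, 3.57% and 4.79% between methanol arrays of different runs and 6.12% between the untreated arrays, also of different runs. Compounds 942 and 181 lay above the methanol arrays of 1 run and 178 lay close to them, but that pair of arrays is from the run and labelling of 178 and 181 and not of 942. The shares of all 3 compounds lay below that between the untreated arrays. Across these genes the steps of 942 and 181 correlated at 0.27, those of 942 and 178 at -0.15 and those of 181 and 178 at 0.10, which describes genes and not replicates. The arrays of 178 and 181 share a run and a labelling method, and those of 942 share neither with them.

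**Figure D1:**
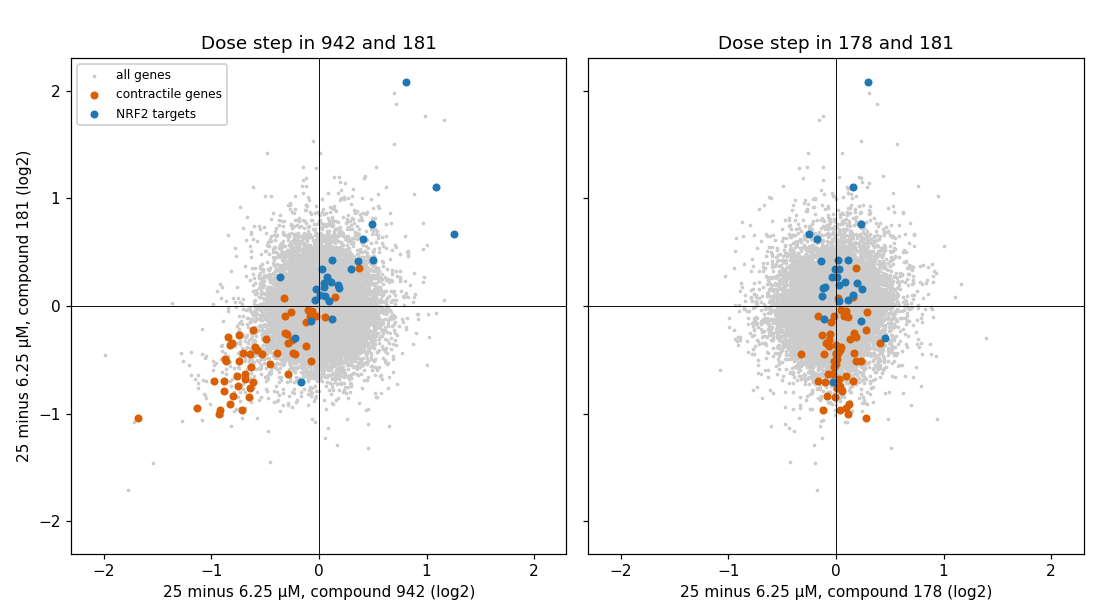
Each point is 1 gene, with the step (25 minus 6.25 µM, log2) of compound 181 on the vertical axis and that of 942 (left) or 178 (right) on the horizontal axis. Contractile genes (orange) lie to the lower left for 942 and 181, with median steps of -0.61 and -0.44, and around 0 for 178 (0.025), while several NRF2 targets (blue) lie to the upper right on the left panel.

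The first question was which genes moved the same way in all 3 pairs. A limma fit of the 3 pairs with the compound as a block called no gene at an adjusted p under 0.05, that is 0% of genes in either direction. At an unadjusted p under 0.05, 522 genes (2.35%) were higher and 707 (3.19%) lower at 25 µM, 1229 in all (5.54%), where 1109 would be expected by chance. An exact sign permutation over 3 pairs cannot give a two-sided p below 0.25 for a single gene. By size, 2 genes (0.00902% of those tested) were at least 0.5 higher and 1 gene (0.00451%) at least 0.5 lower in every pair, and none reached 1. With a limit of 0.25, 77 genes (0.347%) were higher and 62 (0.280%) lower in every pair. These genes were chosen by their steps, so the counts describe them and test nothing. At the limit of 0.5, Olfr859 lay just inside with a smallest step of 0.511 and Orm3 just outside with 0.497. On the lower side, Cmklr1 lay inside with 0.597 and Slc44a4 outside with 0.491.

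Much of the list of 0.25 was dim. Of the 77 higher genes 24 had a mean signal of at least 5, and of the 62 lower genes 25 had one. Predicted genes, olfactory and vomeronasal receptors and small RNAs made up 31 of the 77 and 19 of the 62, beside 4750 of all 22180 genes. The genes described next all had a mean signal of at least 5 over the 6 arrays.

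Slc1a3, a glutamate transporter, stood first among the higher genes when they were ranked by the smallest of their 3 steps. Its signal was 7.99 at 25 µM of 942 against 7.30 at 6.25 µM, 6.98 against 6.41 for 178, and 8.73 against 7.23 for 181. The 12.5 µM arrays lay between, at 7.69, 6.77 and 7.81 for 942, 178 and 181, and the 3 methanol arrays had 6.87 to 7.09. The mean step was 0.92 ± 0.15 (SE, 3 pairs, limma adjusted p = 0.286). All 178 arrays but that at 25 µM lay below every methanol array, and that array lay within their range. With BMP4, Slc1a3 stood at 8.30 to 9.68 in the 6 arrays, against 7.17 and 6.5 in untreated cells.

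Neat1, the long noncoding RNA that builds nuclear paraspeckles, gave the lowest adjusted p of the higher genes. It measured 9.34, 9.09 and 9.62 at 25 µM of 942, 178 and 181, against 8.72, 8.65 and 9.08 at 6.25 µM. The dose groups did not overlap, but the highest 6.25 µM array lay just under the lowest 25 µM array, and methanol spread over 8.49 to 9.11. The mean step was 0.53 ± 0.065 (SE, 3 pairs, limma adjusted p = 0.104). Compounds 942 and 181 differed from 178 by 0.15 in this step (95% interval -0.61 to 0.91).

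Lpl, the lipase that releases fatty acids from circulating triglyceride, measured 8.57, 8.25 and 8.73 at 25 µM of 942, 178 and 181, against 7.60, 7.84 and 7.96 at 6.25 µM. The mean step was 0.72 ± 0.10 (SE, 3 pairs, limma adjusted p = 0.140), and the dose groups did not overlap. Its level differed between the methanol arrays of the runs, with 7.27 in the run of 942 and 8.12 and 8.09 in the run of 178 and 181. A second, dim probe set of Lpl had steps of 0.19, -0.38 and -0.01. A slope over all 9 compound arrays, with compound as a block, called Lpl and Slc1a3 higher at a limma adjusted p of 0.0302 each (2 genes, 0.00902%). That fit has 5 residual degrees of freedom and takes arrays of the same compound as independent, while only the 3 compounds replicate the dose. Its estimates equal the mean steps of the 3 pairs, so it adds no separate support.

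Phex and Fgf7 shared a pattern in which 181 moved most. Phex, an endopeptidase of bone-forming cells, measured 6.76, 6.05 and 7.59 at 25 µM of 942, 178 and 181, against 6.04, 5.67 and 5.71 at 6.25 µM. Fgf7, a growth factor for epithelia, measured 6.98, 6.42 and 8.04 at 25 µM, against 6.27, 6.11 and 6.06 at 6.25 µM. Their mean steps were 0.99 ± 0.22 and 1.0 ± 0.24 (SE, 3 pairs), with the 178 steps the smallest at 0.38 and 0.31. Slc7a11, which brings cystine into the cell, was of the same kind with steps of 0.81 in 942, 0.30 in 178 and 2.08 in 181. Its signal was low outside 181 (4.64 and 5.38 at 25 µM of 178 and 942, against 4.34 and 4.56 at 6.25 µM), and a second probe set at a mean of 2.34 gave steps of -0.054, -0.099 and 0.48. Tgm5, a transglutaminase, and Ptgfr, the receptor of prostaglandin F, had steps of 0.35 to 0.64 and 0.34 to 0.71. The chemokine gene Ccl2 had steps of 0.54, 0.29 and 0.70 in 942, 178 and 181, beside a methanol range of 7.12 to 7.89.

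Among the lower genes, Cmklr1, the receptor of the adipokine chemerin, stood first by its smallest step. It measured 5.55, 5.63 and 5.49 at 25 µM of 942, 178 and 181, against 6.38, 6.23 and 6.62 at 6.25 µM. The groups were apart, and the 12.5 µM arrays of 942 (6.38) and 178 (6.34) stood at the 6.25 µM level. The mean step was -0.85 ± 0.12 (SE, 3 pairs, limma adjusted p = 0.144). The methanol arrays ran over 5.86 to 6.79, a range wider than the mean step, and all 3 of the 25 µM arrays lay below them.

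Vamp5, a vesicle protein of muscle cells, measured 8.27, 8.45 and 8.55 at 25 µM of 942, 178 and 181, against 8.86, 9.0 and 8.99 at 6.25 µM. The mean step was -0.52 ± 0.068 (SE, 3 pairs, limma adjusted p = 0.104). The step of 178 (-0.55) lay between those of 942 (-0.59) and 181 (-0.44), and the mean of 942 and 181 minus 178 was 0.036 (95% interval -0.76 to 0.83). Msln (mesothelin, a surface glycoprotein) measured 8.30, 8.37 and 8.12 at 25 µM, against 8.77, 8.69 and 8.60 at 6.25 µM, and 12.5 µM lay between in every compound. The slope over 9 arrays, which takes arrays of a compound as independent, called Vamp5 and Msln lower (limma adjusted p = 0.0302 each, 2 genes, 0.00902%). BMP4 lowered both, Msln by a log2 difference of -3.22 and Vamp5 of -1.53 (limma adjusted p = 8.34e-08 and 2.20e-04).

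Sprr1a, a cornified envelope protein that injured cells also make, had steps of -0.45 in 942, -0.43 in 178 and -1.45 in 181. Col18a1, which encodes the collagen that yields endostatin, measured 6.58, 6.65 and 6.60 at 25 µM of 942, 178 and 181, against 6.93, 7.15 and 7.29 at 6.25 µM. Depp1 and Tspan32 had steps of -0.33 to -0.95 and of -0.34 to -1.04, smallest in 178 in both. Of the ATP synthase genes, Atp5g1 measured 5.05, 5.09 and 4.99 at 25 µM, against 5.6, 5.56 and 5.57 at 6.25 µM, yet methanol arrays ranged over 4.91 to 5.93.

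**Figure D2:**
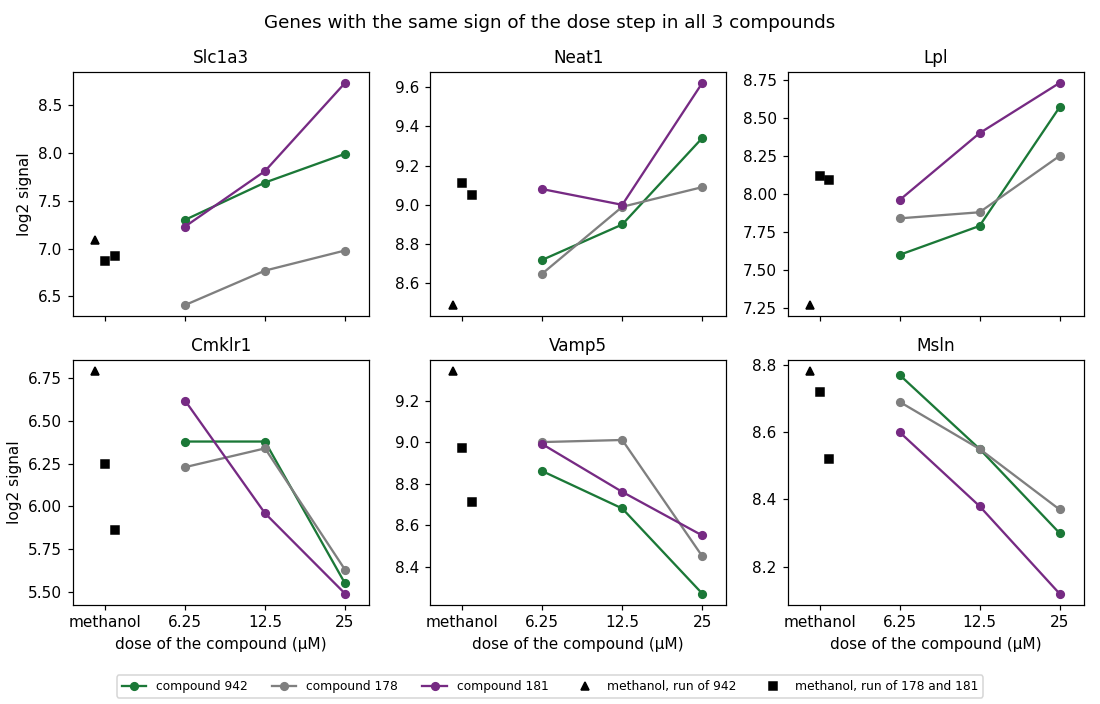
Log2 signals of 6 genes with the same sign of the step in every compound, by dose (µM) for 942, 178 and 181, 1 array a point, with the 3 methanol arrays at the left. In each gene the 25 µM arrays lie above (Slc1a3, Neat1, Lpl) or below (Cmklr1, Vamp5, Msln) the 6.25 µM array of the same compound, and methanol arrays spread widely in Lpl, Cmklr1 and Vamp5.

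Direct BMP targets took small steps. Of 20 measured BMP and SMAD targets none passed the test in either direction, 8 were higher and 3 lower in all pairs (over all genes, 12.3% and 12.1%), and the median step was 0.035 in 942, 0.11 in 178 and 0.13 in 181, against -0.0025, 0.0058 and -0.0023 over all genes. Id2 and Id3, inhibitors of myogenic bHLH factors, had steps of 0.17 to 0.25 and 0.11 to 0.49. Id1 measured 7.47, 7.17 and 7.68 at 25 µM of 942, 178 and 181, against 7.44, 6.93 and 7.12 at 6.25 µM. The inhibitory SMAD genes split between compounds: Smad6 had steps of -0.17, 0.40 and 0.42 and Smad7 of -0.30, 0.27 and -0.12 in 942, 178 and 181. Smad9, a BMP-activated SMAD, had steps of 0.48, 0.28 and 0.40, at a signal of 4.73 to 5.36 near the array medians.

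Osteoblast genes showed no common direction with dose, and many of them were dim. Sp7, the osteoblast transcription factor osterix, measured 4.50, 4.17 and 4.39 at 25 µM of 942, 178 and 181, against 4.15, 4.34 and 4.57 at 6.25 µM, and 4.40 to 4.45 in methanol. Alpl, the bone alkaline phosphatase, measured 5.13, 4.84 and 4.89 at 25 µM, against 4.79, 4.92 and 5.05 at 6.25 µM. BMP4 raised Sp7 by 3.97 and Alpl by 3.18 over untreated cells (limma adjusted p = 7.40e-05 and 6.72e-04). A second Alpl probe set had steps of 0.36, 0.2 and -0.22. The osteoblast list of 16 genes had median steps of -0.021, 0.047 and -0.047, and none of its members passed. Mean signals over the 6 arrays were 4.35 for Sp7, 4.94 for Alpl, 3.87 for Ibsp and 4.12 for Panx3. Array medians were 4.93 to 5.05, so low signal limits what such steps can show. Among brighter members, Phex had steps of 0.72 in 942, 0.38 in 178 and 1.88 in 181. Those of Col1a1 were -0.96, 0.094 and -0.53.

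The second question was which genes moved in 942 and 181 but not in 178, by at least 0.5 in the same direction in the first 2 and by less than 0.25 in 178. There were 19 such genes at higher levels (0.0857% of those tested) and 86 at lower levels (0.388%) at 25 µM. The steps chose them, so their sizes are descriptions. At the limit, Kitl lay inside on the higher side with 0.501 and Ptchd1 outside with 0.498, and Sohlh2 and Pdk1 lay on either side of 0.5 on the lower side. Nearly all were well measured, 17 of the 19 and 85 of the 86 having a mean signal of at least 5. The median step of the 86 was -0.74 in 942, 0.027 in 178 and -0.70 in 181.

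Muscle genes were among those lower in 942 and 181. The 86 held 19 of the 54 contractile genes measured and 5 of the 22 myogenic regulators, and the other 62 were in neither list. The lists are not complete, and muscle genes such as Apobec2 are among the 62. Myog itself, the myogenin gene, measured 11.28, 11.18 and 10.60 at 6.25, 12.5 and 25 µM of 942, and 10.88, 10.67 and 10.24 at the same doses of 181. In 178 it measured 11.02, 10.99 and 11.16. Both 25 µM values of 942 and 181 lay under the 3 methanol arrays (10.69 to 11.22), while every 178 value lay inside their range. Mymx, which encodes a protein of myoblast fusion, had steps of -0.54 in 942, -0.023 in 178 and -0.63 in 181, and Mef2c, a partner of myogenin, of -0.66, 0.19 and -0.56. A second, dimmer Mef2c probe set (mean signal 5.17) did not show this pattern, with steps of -0.27, -0.15 and -0.12. Myod1, which marks the myoblast before it differentiates, had steps of only -0.20, -0.0087 and -0.020.

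Mb, the oxygen store myoglobin, measured 8.74, 8.42 and 7.61 at 6.25, 12.5 and 25 µM of 942 and 8.33, 7.91 and 7.37 at those doses of 181, but 8.51, 8.69 and 8.61 in 178. Casq2, a calcium-binding protein of the sarcoplasmic reticulum, measured 9.23, 9.02 and 8.31 in 942, 9.16, 8.82 and 8.19 in 181, and 9.40, 9.43 and 9.44 in 178. Both genes were lower at each higher dose of 942 and 181, and their 178 arrays lay within 0.2 of each other. Troponin T of embryonic and cardiac muscle, Tnnt2, had steps of -0.75 in 942, 0.036 in 178 and -0.74 in 181. Embryonic myosin, Myh3, had steps of -0.88, 0.060 and -0.79, and the stretch-responsive Ankrd2 of -0.93, 0.11 and -1.0.

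R3hdml had the largest steps of the 86, with 9.55, 9.13 and 7.78 at 6.25, 12.5 and 25 µM of 942, 8.85, 8.17 and 7.14 in 181, and 9.19, 9.19 and 9.01 in 178. Next came 2610528A11Rik with steps of -1.54 in 942, -0.19 in 178 and -1.46 in 181. Cilp, a cartilage matrix gene, had steps of -1.72, 0.084 and -1.08, Trp53i11 of -1.27, -0.14 and -1.07, and the protease gene Ctrb1 of -1.09, -0.12 and -1.06. Apobec2, the cytidine deaminase relative found in muscle, and Ablim3, an actin-binding protein, had steps of about -1 in 942 (-1.01 and -0.90) and 181 (-0.91 and -1.01) and of -0.032 and -0.0057 in 178. For R3hdml, methanol replicates were 9.88, 9.01 and 8.64, and both 25 µM values of 942 and 181 lay below them.

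The whole contractile list showed the same division, but 19 of its genes had been chosen by the rule for that division. The counts and medians below include those 19, and the other genes of the list were not counted apart. All 54 measured genes counted, 51 were lower in 942, 21 in 178 and 51 in 181 at 25 µM. Beside this, 11241, 10785 and 11198 of all 22180 genes were lower. Of the 54, 31, 0 and 23 were lower by at least 0.5, beside 1.77%, 1.74% and 2.61% of all genes. Median steps were -0.61, 0.025 and -0.44. The mean signal of the list was 8.57, 8.44 and 8.04 at 6.25, 12.5 and 25 µM of 942, 8.55, 8.59 and 8.59 in 178, and 8.46, 8.29 and 8.01 in 181. Exceptions included Myh2 with steps of 0.37, 0.19 and 0.35, and Des, the intermediate filament of muscle, with -0.031, -0.016 and -0.094. The close relatives Myh1, Myh2 and Myh8 are uncertain, since probe sets may not separate them. This list also differed between control arrays: its median was 0.22 higher in methanol replicate 2 than in replicate 3, 0.34 higher in replicate 1 than in replicate 3, and 0.23 higher in untreated replicate 1 than in replicate 2. The median steps of 942 and 181 were larger in size than any of these, and the part of well-to-well differences in them was not tested. Fewer differentiating cells and less of these RNAs per cell cannot be told apart in such bulk samples.

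The rule did not use the 12.5 µM arrays. At 12.5 µM, 85 of the 86 lay below the methanol level of their run in 942, 83 in 181 and 24 in 178. For 181 and 178 that level was the mean of the run's methanol arrays, so a gene counted need not lie below each array. Over all genes the shares below methanol were 58.4%, 47.6% and 48.6%. For 942 this rests on the 1 methanol array of its run, which was labelled by the other method. Compound and labelling therefore cannot be told apart there. At the lowest dose the median of the 86 against methanol was already -0.21 in 942, beside -0.031 in 181 and 0.063 in 178. The part of this earlier difference in the counts at 12.5 µM was not tested.

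**Figure D3:**
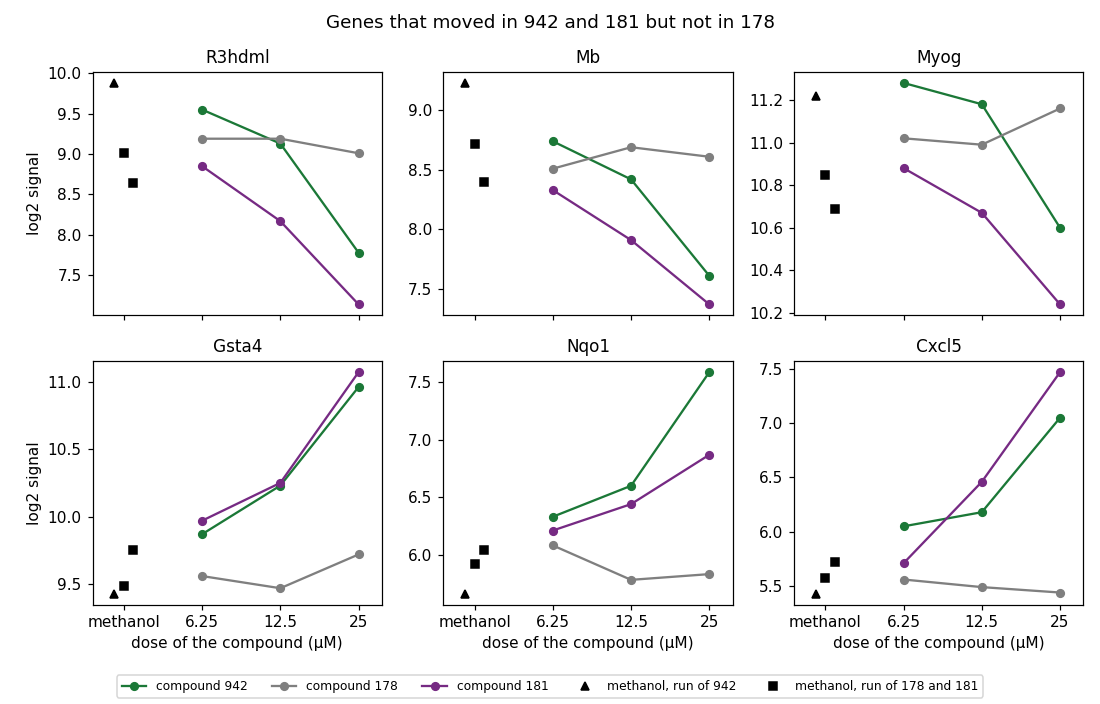
Log2 signals by dose (µM) of 6 genes chosen for moving in 942 and 181 but not in 178, 1 array a point, with the 3 methanol arrays at the left. R3hdml, Mb and Myog go down and Gsta4, Nqo1 and Cxcl5 go up with dose in 942 and 181, and 178 stays near the methanol arrays.

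Promoters of the 86 genes were read because muscle genes are bound by myogenin and MyoD at E-boxes, whose muscle form is often CAGCTG. RefSeq (GRCm38.p6) gave the 250 bases before the start for 64 of the 86, and 27 of these genes (42.2%) held CAGCTG in at least 1 such window, which reads alike on both strands. Of the 16990 genes tested that had a window, 14.3% held it. Among the 45 of the 86 that had a window and were in neither muscle list, 18 held it. These 45 still include muscle genes such as Apobec2, so they are not a group without muscle genes. Of the 41 contractile genes with a window, 19 (46.3%) held it. Of the 12 higher genes with a window, 1 (8.33%) held it. The windows below, 5′ to 3′ on the gene's strand, belong to 4 muscle genes of the 86 and show the motif in capitals. They were picked for the match, at chr15:77022788-77023037 on the minus strand for Mb (1 of its 3 starts), chr1:135836084-135836333 on the plus strand for Tnnt2 (1 of 2), chr17:48432729-48432978 on the minus strand for Apobec2 and chr2:69669870-69670119 on the plus strand for Klhl41.
Mb: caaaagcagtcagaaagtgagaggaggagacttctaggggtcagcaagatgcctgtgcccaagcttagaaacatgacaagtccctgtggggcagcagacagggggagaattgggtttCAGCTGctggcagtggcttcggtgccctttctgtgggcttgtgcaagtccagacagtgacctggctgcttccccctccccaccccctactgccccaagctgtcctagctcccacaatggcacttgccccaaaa
Tnnt2: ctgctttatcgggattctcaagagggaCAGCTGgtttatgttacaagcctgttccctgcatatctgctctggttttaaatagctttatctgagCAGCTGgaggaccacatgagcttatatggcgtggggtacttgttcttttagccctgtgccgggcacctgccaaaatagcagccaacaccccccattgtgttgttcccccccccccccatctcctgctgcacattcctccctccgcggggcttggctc
Apobec2: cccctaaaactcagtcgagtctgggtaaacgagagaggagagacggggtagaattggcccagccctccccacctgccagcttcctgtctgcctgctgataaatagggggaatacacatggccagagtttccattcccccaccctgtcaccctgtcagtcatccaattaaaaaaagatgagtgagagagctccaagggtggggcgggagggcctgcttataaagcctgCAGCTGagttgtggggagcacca
Klhl41: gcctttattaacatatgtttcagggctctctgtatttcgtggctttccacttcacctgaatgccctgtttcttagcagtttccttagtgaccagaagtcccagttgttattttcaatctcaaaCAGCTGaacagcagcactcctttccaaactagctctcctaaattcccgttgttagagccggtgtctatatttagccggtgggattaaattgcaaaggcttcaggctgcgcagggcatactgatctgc
The motif begins 133 bases before the start in Mb, 223 and 157 in Tnnt2, 23 in Apobec2 and 127 in Klhl41. Klhl41, which keeps thin filaments of muscle stable, had steps of -0.86 in 942, -0.061 in 178 and -0.63 in 181. The window of Myog does not hold the motif.

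Higher in 942 and 181 were several detoxifying enzymes and secreted factors. Gsta4, a glutathione transferase for products of lipid peroxidation, measured 9.87, 10.23 and 10.96 at 6.25, 12.5 and 25 µM of 942, 9.97, 10.25 and 11.07 in 181, and 9.56, 9.47 and 9.72 in 178. Methanol arrays had 9.43 to 9.75, so 942 and 181 lay above all of them at every dose and 178 within them. Nqo1, a quinone reductase and classic NRF2 target, measured 6.33, 6.60 and 7.59 in 942, 6.21, 6.44 and 6.87 in 181, and 6.08, 5.78 and 5.83 in 178. Aldh3a1, an aldehyde dehydrogenase, had steps of 0.97 in 942, -0.17 in 178 and 0.53 in 181, and Adh7, an alcohol dehydrogenase that oxidises retinol, of 0.67, -0.055 and 0.77. Xdh, the xanthine oxidoreductase, had steps of 0.66, 0.056 and 0.86 at a low signal. The 10 measured targets of the aryl hydrocarbon receptor, Nqo1 and Aldh3a1 among them, had median steps of 0.18, 0.021 and -0.051.

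Ranbp3l, a nuclear exporter of BMP-activated SMADs, measured 6.43, 6.62 and 7.59 at 6.25, 12.5 and 25 µM of 942, 5.88, 6.58 and 7.61 in 181, and 5.75, 5.56 and 5.59 in 178. The chemokine Cxcl5, which draws neutrophils, measured 6.05, 6.18 and 7.05 in 942, 5.71, 6.46 and 7.47 in 181, and 5.56, 5.49 and 5.44 in 178. Both were above every methanol array at 12.5 and 25 µM of 942 and 181. Hgf, the growth factor that wakes muscle satellite cells, had steps of 0.88, 0.14 and 1.04, and Vegfd, a lymphatic growth factor, of 0.56, 0.13 and 0.91. P3h2, a collagen prolyl hydroxylase, had steps of 0.62, -0.066 and 0.76, and Gpr137b of 0.80, -0.17 and 0.65.

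Of 26 NRF2 targets measured, 20 were higher in 942, 16 in 178 and 22 in 181, beside 49.3%, 51.4% and 49.5% of all genes. The median steps of the 26 were 0.10, 0.027 and 0.22, and none passed the fit of the 3 pairs. The list did not move as a whole: Hmox1, the heme-degrading enzyme, had steps of -0.36, -0.034 and 0.27, and the glutathione-synthesis genes Gclc and Gclm of -0.026 to 0.24 and 0.050 to 0.21. Srxn1 and Ephx1, a sulfiredoxin and an epoxide hydrolase, had steps of 0.36, -0.14 and 0.42 and of 0.41, -0.18 and 0.62 in 942, 178 and 181. Hypoxia and glycolysis genes, 27 measured, had median steps of -0.23 in 942, -0.014 in 178 and -0.22 in 181. Of the 27, 25, 16 and 25 were lower, beside 11241, 10785 and 11198 of all 22180 genes. Egln3, an oxygen-sensing prolyl hydroxylase, and Bnip3, a mitophagy receptor, were among the 86 with steps of -0.73, -0.14 and -0.95 and of -0.63, -0.13 and -0.62. The 23 TGF-beta targets had medians of -0.25, 0.10 and -0.14. Of these, Postn, a matrix protein, had steps of -1.99, 0.54 and -0.46, and Tagln, a smooth muscle actin binder, of -0.69, 0.16 and -0.43. The 40 cell cycle genes had medians of 0.0021, 0.051 and -0.049, and no member reached 0.5 in size in any compound.

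**Figure D4:**
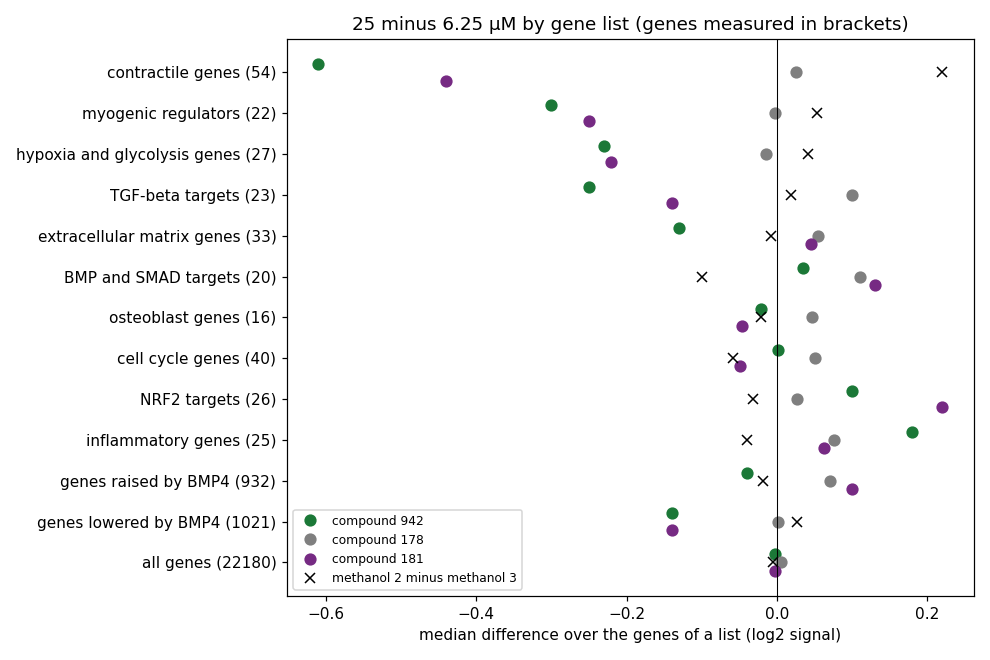
Median step (25 minus 6.25 µM, log2) of each gene list in 942, 178 and 181, with the number of genes measured, and the median difference between methanol replicates 2 and 3 as a cross. Contractile genes stand at -0.61 and -0.44 in 942 and 181 and 0.025 in 178, against 0.22 between the methanol arrays.

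The BMP4 and untreated arrays are apart from those of the compound pairs. Muscle genes also varied together between control wells, as the differences of the contractile list show, and the part of such joint variation in the overlap was not tested. BMP4, averaged over its doses, raised 932 genes (4.20% of those tested) and lowered 1021 (4.60%) against untreated cells at a limma adjusted p under 0.05. Of the 86 genes lower in 942 and 181, 71 were among those lowered by BMP4, which is 82.6% of the 86 and 6.95% of the 1021. Of the 19 higher genes, 10 were among those raised by BMP4, which is 52.6% of the 19 and 1.07% of the 932. Examples are Ranbp3l (BMP4 minus untreated 2.35), P3h2 (2.65), Myog (-2.88), Casq2 (-3.41) and R3hdml (-4.11). The steps of these 5 genes were smaller, for example -1.77 in 942 and -1.71 in 181 for R3hdml and 1.16 and 1.73 for Ranbp3l. A step lies between 2 doses of a compound and the BMP4 difference starts from untreated cells, so the sizes are not of like measures.

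Some genes went the other way. Cnn1, Actg2, Col1a1 and Bnip3 were lower at 25 µM of 942 and 181 but raised by BMP4, by 1.24, 0.53, 1.12 and 0.70 (limma adjusted p = 0.0322, 0.00538, 0.00487 and 0.0310). These 4 were the only such genes among the 86, and Gpr137b, which BMP4 lowered by a difference of -1.23 (limma adjusted p = 0.00685), was the only opposite case among the 19. Gsta4, Cxcl5, Xdh and Kitl were higher at 25 µM of 942 and 181 and did not pass for BMP4, with differences of -0.42, 0.094, -0.15 and 0.082.

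Over all 1021 genes lowered by BMP4, the median step was -0.14 in 942, 0.0017 in 178 and -0.14 in 181, and 797, 500 and 765 of them were lower at 25 µM. The 932 genes raised by BMP4 had medians of -0.040, 0.070 and 0.10, and 381, 649 and 642 of them were higher. The lowered genes had a median below 0 in 942 and 181 and near 0 in 178, and the raised genes had a median above 0 in 178 and 181 and below 0 in 942. Between control arrays the median of the 1021 genes differed by 0.027 for methanol replicates 2 and 3, by 0.035 and 0.070 for methanol replicate 1 against replicates 2 and 3, and by 0.040 for untreated replicates 1 and 2. For the 932 raised genes the same differences were -0.018, -0.01, -0.033 and -0.043. Their median step of -0.040 in 942 lay within that range.

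**Figure D5:**
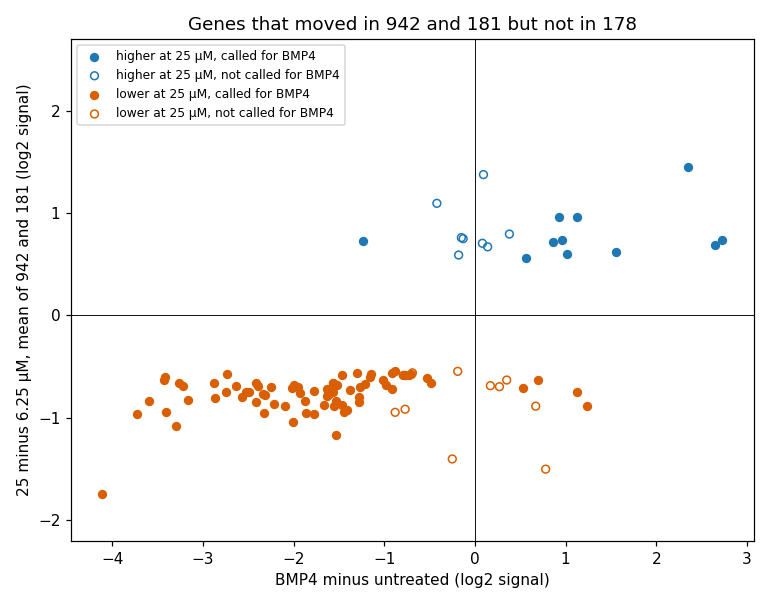
Each point is 1 of the 105 genes that moved in 942 and 181 but not in 178, with BMP4 minus untreated (log2) on the horizontal axis and the mean step of 942 and 181 (log2) on the vertical axis. Filled points passed the test for BMP4. Of the 86 lower genes 71 are filled at the lower left, and of the 19 higher genes 10 are filled at the upper right.

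Whether 942 and 181 differed from 178 was also tested over all genes in a limma fit of the 20 arrays, in which the spread came from the treatments with several arrays. No gene was called for the mean step of 942 and 181 minus that of 178 (0%; 503 genes, 2.27%, at an unadjusted p under 0.05). Nor was any called for a single compound's step (0%; 467, 359 and 787 genes unadjusted for 942, 178 and 181, or 2.11%, 1.62% and 3.55%) or for the 3 pairwise differences of steps, also when the 3 were adjusted together (0%; 456, 505 and 464 unadjusted, 2.06%, 2.28% and 2.09%). The median standard error of the difference of 942 and 181 from 178 was 0.289, and most replicate pairs behind it span both runs, while each step lies within 1.

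Fitted alone, the pairs of 942 and 181 gave 71 genes higher (0.320%) and 225 lower (1.01%) at a limma adjusted p under 0.05, with 32 of 54 contractile genes, 10 of 22 myogenic regulators and 7 of 26 NRF2 targets among them. That fit was chosen with the results known, has 1 residual degree of freedom and is the same contrast that chose the genes above. It called no gene (0%) without the trend on mean signal or when the spread was taken from all 20 arrays, and 12 without the block.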

How the data were processed

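Expression was measured on Affymetrix mouse gene arrays with total RNA of C2C12 cells. The deposited values are log2 signals, 1 per probe set and array. Per the submitters' processing notes, Partek 6.5 and RMA were used, and RMA includes background correction, quantile normalization and probe summary. Per the labels' protocols, 3 samples were labelled by both methods for batch correction, but the sources used here do not say if the deposited values carry one.

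The values were used as deposited. Of 41345 probe sets 23521 carried 1 gene symbol in the platform annotation, 1814 several and 16010 none, and each of 22180 genes was represented by its brightest probe set on average. With limma 3.58.1 in R 4.3.3, the 3 pairs of arrays were fitted with compound as a block and a trend on mean signal (2 residual degrees of freedom). All 20 arrays were fitted with a mean for every treatment at every dose plus a labelling term (5 residual degrees of freedom), which assumes that single arrays vary like the replicated groups. This second fit gave the steps of single compounds, their differences and the BMP4 calls. P-values were adjusted by Benjamini-Hochberg over all genes and called under 0.05, and intervals are 95% without that adjustment. Since wells may not be separate cultures, the p-values reflect the scatter of these samples, technical scatter included. The number of arrays limits the precision, with a median standard error of 0.122 for the mean step. The fits were tested on simulated data.

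The pairing comes from the compound named in the labels. Genes named by a ranking had a mean signal of at least 5 over the 6 arrays. They were the first 15 per direction by smallest step among genes with 1 sign in all pairs, the first 10 per direction of those that moved in 942 and 181 but not 178, and up to 4 per gene list with 1 sign in all pairs. Id1, Id2, Id3, Smad6, Smad7, Sp7, Alpl, Myog and Myod1 were named whatever their values, and Sp7 (4.35) and Alpl (4.94) lay below 5. Other genes named were chosen after their values were seen, and some of them lay below 5, such as Myh2 (4.78). The comparison and all gene lists were chosen with earlier results of these data known. Promoter windows are RefSeq's, build GRCm38.p6. Alternatives covered normalization, filters, probe sets, model terms and arrays left out.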

Additional observations from a re-analysis of the deposited data

How the results depend on the processing

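The compound served as the replicate block. The fit of the 3 pairs called 0 genes, and also 0 with no replicate block (802 genes at an unadjusted p under 0.05), with quantile normalization, median centring, a filter on mean signal, other probe set rules, no trend and the fit of all 20 arrays. It called 4 genes as a slope over 9 arrays and 2 with robust moderation. Leaving out 1 pair gave 0 to 296 genes: 296 without 178, 9 without 942 and 0 without 181. Among members of the gene lists, 0 passed, 1 passed in the slope, and 0 to 79 passed with 1 pair left out. The pairs of 942 and 181 gave 296 genes, and 0 in the fit of all 20 arrays, 12 with no replicate block, 0 with no trend and 512 after quantile normalization. Of the 296, 279 were shared with the 347 genes of a slope that included 12.5 µM. The middle dose has no weight in such a slope, so its estimate equals the mean step and the overlap is no separate support. These alternatives for 942 and 181 were chosen after seeing the data. Every contrast of single steps and their differences stayed at 0 under each alternative run, and the labelling term could not be estimated when 1 of the arrays of BMP4 300 ng/ml was left out. Genes at least 0.5 higher in all 3 pairs numbered 2, but 77 at 0.25, 0 at 1, and 1 each after quantile normalization, median centring, a filter on signal or a 12.5 µM array on the same side. Lower genes numbered 1, but 62 at 0.25, 0 at 1, 2 after quantile normalization or median centring and 0 with the 12.5 µM rule. Genes that moved in 942 and 181 but not 178 numbered 19 higher and 86 lower, but 320 and 433 at 0.25 and 2 and 5 at 1. Mean steps of single genes turned sign in 7 cases, none past the threshold: Dusp6 (0.10) and Axin2 (0.017) with probe sets averaged, Des (0.0019) after quantile normalization, and with 1 pair left out Smad7 (-0.21 to 0.079), Alpl (-0.12 to 0.13) and Sp7 (-0.18 to 0.088, above 0 in 2 of the cases). The cause was not tested. With 1 array per compound dose, the step of a single gene has no replicate, and methanol arrays of 1 run differ by at least 0.5 in 3.03% of genes.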

Other observations

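Some gene lists outside the pattern of muscle and NRF2 genes had members with sizeable steps in 1 compound, and none of their members passed the limma fit of the 3 pairs. The 25 inflammatory genes had median steps of 0.18 in 942, 0.076 in 178 and 0.063 in 181. Csf1, the macrophage growth factor, was higher at 25 µM in every compound, with steps of 0.33 in 942, 0.23 in 178 and 0.45 in 181. The chemokines Cxcl1, Cxcl12 and Ccl5 were picked after their values were seen. Cxcl1 and Cxcl12 had steps of 1.09 and 1.05 in 181, against 0.32 and 0.18 in 942 and 0.11 each in 178. Ccl5 had steps of 1.08 in 181, 0.21 in 942 and -0.14 in 178.

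Of the 19 genes of cholesterol synthesis and uptake, 15 were lower at 25 µM in 942, 6 in 178 and 17 in 181. Over all 22180 genes, 11241, 10785 and 11198 were lower. Medians of the 19 were -0.13, 0.066 and -0.15, and no member reached 0.5 in size. The 33 extracellular matrix genes had medians of -0.13, 0.055 and 0.046. Dcn, the matrix proteoglycan decorin, had steps of 0.38 in 942, 0.043 in 178 and 0.53 in 181, and Pparg, the regulator of fat cell formation, of 0.17, 0.065 and 0.60.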
